A study of Homo sapiens with 4 samples.

Results

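The BCL2 family decides whether a cell opens the outer membrane of its mitochondria and dies by apoptosis. A set of 10 of its genes was examined in U937 cells treated with phorbol ester. They were found by their symbols in the deposited table, where all 10 were present among 60662 rows, and all 10 passed the filter on low counts, with 254 to 23503 counts per library. There were 4 pro-survival genes (BCL2, BCL2L1, MCL1 and BCL2A1), 2 effector genes (BAX and BAK1) and 4 BH3-only genes (BCL2L11, BBC3, PMAIP1 and BID). U937 is an established human myeloid line from a histiocytic lymphoma. The PMA group was U937 grown with 10 nM phorbol 12-myristate 13-acetate, an activator of protein kinase C, for 72 h, given to turn the cells into macrophage-like cells, and the untreated group was U937 grown without PMA for 72 h. Each group had 2 libraries, 1 from each of 2 lots of cells, and all were grown in the same serum-supplemented medium. U937 is a single tumour line, and the labels give plating on a dish at a set density with the PMA treatment alone, so effects of PMA and of plating cannot be told apart.

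As background, pro-survival members hold the effectors BAX and BAK in check at the mitochondrion. BH3-only proteins sense stress and either block the pro-survival members or act on BAX and BAK directly. Once active, BAX and BAK form pores that let cytochrome c out, which starts the caspase cascade. Myeloid cells are known for their reliance on MCL1, and BCL2A1 is a known target of NF-kB in activated leukocytes. Several of these genes give isoforms of opposite action, such as the long and short forms of BCL2L1, which a count per gene cannot separate.

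The libraries held 35739833 to 54915928 counts. A level is a CPM value, the count scaled to a library size adjusted by TMM factors, and values of a group are in the order lot 1, lot 2. The myeloid list had all 10 markers above 1 CPM in at least 1 library, and their sum was 4571 and 4539 CPM in the PMA libraries, against 409 and 1272 CPM in the untreated libraries. Of these 10 markers 5 rose and 0 fell by the test described below, so the rises of MCL1 and BCL2A1 reported next came with a shift of myeloid markers, whose part in them was not tested. ITGAX alone gave 1908 and 2705 CPM of these sums with PMA, against 12.5 and 12.6 CPM without. LYZ, which encodes lysozyme, lay at 211 and 126 CPM with PMA, against 136 and 905 CPM without, so it made up most of the sum in untreated lot 2 and was not called (edgeR log2 fold change −1.63 ± 0.91, adjusted p = 0.330). SPI1, CD33, FCGR1A, CD68, LYZ, ITGAX and ITGAM were above 1 CPM in every library, while CD14 and CD163 were listed at 0 in both untreated libraries and CSF1R was at 0 and 1.74 CPM there. All 5 T cell markers were listed at 0 in every library, KRT8, KRT18, KRT19 and CDH1 of 5 epithelial markers were at 0, COL1A1, COL1A2, COL3A1 and DCN of 5 fibroblast markers were at 0, and 4 of 5 erythroid markers, HBA1, HBB and ALAS2 among them, were at 0. Of 5 B cell markers MS4A1 was at 0, 3 passed 1 CPM, CD79A and PAX5 among them, and the sum was 11.3 and 13.5 CPM with PMA, against 26.8 and 17.6 CPM without. The 3 B cell markers, 1 erythroid marker and 1 fibroblast marker that could be tested were not called. In bulk RNA such as this, fewer cells with a transcript and less of it per cell cannot be told apart.

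Of the 10 members, MCL1 and BCL2A1 rose with PMA and 0 fell at an adjusted p under 0.05 (edgeR, quasi-likelihood test, Benjamini-Hochberg method over 16451 genes). Both are pro-survival genes. The same test called 4.29% of all genes tested as higher and 2.02% as lower, or 6.30% in either direction. At an unadjusted p under 0.05 there were 4 members (BCL2, MCL1, BCL2A1 and BAK1), against 27.0% of all genes. DESeq2 called 3 of 10 members as higher and 0 as lower, against 13.5% and 10.7% of 15813 genes, or 24.2% in either direction. Its count of members in either direction thus lay near the share of all genes. The 2 PMA libraries did not overlap the 2 untreated libraries for 7 of 10 members, 5 higher and 2 lower, against 60.4% of all genes tested, 31.0% higher and 29.4% lower. The median log2 fold change was 0.32 over the members and 0.00 over all genes tested. The labels do not say whether the lots were separate cultures, so the p-values speak only of the scatter among these 4 libraries, which may be technical.

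**Figure D1:**
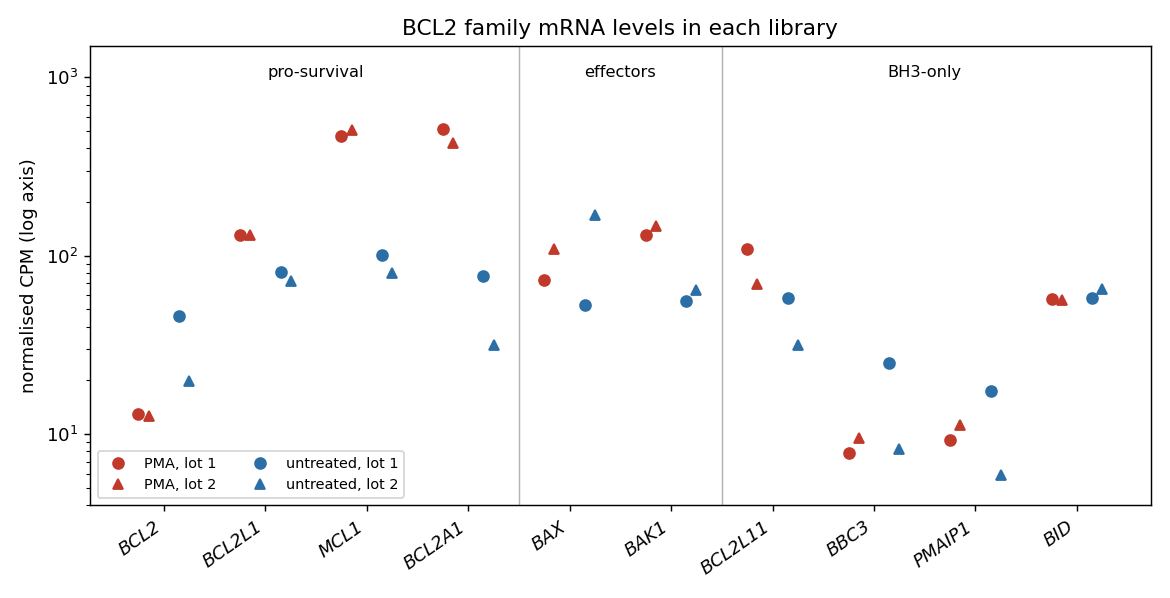
Level of each of the 10 genes in normalised CPM on a log axis, by role; red marks are the 2 PMA libraries and blue marks the 2 untreated libraries, circles lot 1 and triangles lot 2. MCL1 and BCL2A1 stand at 429 to 513 CPM in the PMA libraries and at 31.8 to 101 CPM in the untreated ones, while BAX, BBC3 and PMAIP1 overlap between the groups.

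MCL1 is a short-lived pro-survival protein whose supply depends on continuous synthesis. It was at 470 and 508 CPM in the PMA libraries, against 101 and 80.6 CPM in the untreated libraries. Both PMA libraries were far above both untreated libraries, and the lots differed little within each group. MCL1 (ENSG00000143384.13) rose 5.38-fold, a log2 fold change of 2.43 ± 0.31 (SE, n = 2 libraries per group, edgeR adjusted p = 0.0272). The ratio of PMA to untreated was 4.64 in lot 1 and 6.31 in lot 2. Without PMA replicate 1 or 2 in turn the adjusted p was 0.0704 and 0.0940, with log2 fold changes of 2.42 and 2.38.

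BCL2A1, also called BFL-1 or A1, is a pro-survival gene of haematopoietic cells. It was at 513 and 429 CPM in the PMA libraries, against 76.8 and 31.8 CPM in the untreated libraries. The groups lay well apart, although the untreated lots themselves differed 2.42-fold. BCL2A1 (ENSG00000140379.8) rose 8.67-fold, a log2 fold change of 3.12 ± 0.53 (SE, n = 2 per group, edgeR adjusted p = 0.0400), which is the largest rise among the 10 members. The ratio was 6.68 in lot 1 and 13.5 in lot 2. Without PMA replicate 1 or 2 in turn the adjusted p was 0.0629 and 0.0518, with log2 fold changes of 2.92 and 3.25.

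The sequence before the start of BCL2A1 is shown because this gene rose most among the members, and that of BAX because it repeats a motif. RefSeq promoter entries (GRCh38.p14) matched 9 of the 10 members, all but MCL1. Each line gives the 250 bases before the annotated start, 5′ to 3′ on the strand of the gene, at chr15:79971197-79971446 (minus strand) and chr19:48954625-48954874 (plus strand). Capitals mark TATAAA in BCL2A1 and CACGTG in BAX.
BCL2A1: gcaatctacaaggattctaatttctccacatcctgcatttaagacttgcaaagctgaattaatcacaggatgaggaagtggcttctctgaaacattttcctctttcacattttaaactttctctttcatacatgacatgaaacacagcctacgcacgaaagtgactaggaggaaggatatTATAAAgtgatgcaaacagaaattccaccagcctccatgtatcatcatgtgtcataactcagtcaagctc
BAX: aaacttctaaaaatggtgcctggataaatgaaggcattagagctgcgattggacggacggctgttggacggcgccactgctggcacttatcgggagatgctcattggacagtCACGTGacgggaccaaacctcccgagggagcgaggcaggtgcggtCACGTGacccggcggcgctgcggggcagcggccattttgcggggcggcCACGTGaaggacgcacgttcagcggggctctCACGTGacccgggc

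The BCL2A1 window held TATAAA at bases 70 to 65 before the start, a motif present in 10.7% of 35116 RefSeq windows of the same length, and no other member's window held it. The G and C share of that window was 38.8%, against 49.2% to 78.0% in the other 8 members and a median of 58.0% over all windows. The BAX window held the E-box CACGTG at 4 places, and 5 of the 35116 windows held it 4 or more times, while 6.34% held it at all. BBC3 and BID also held CACGTG, and BBC3 held the AP-1 letters TGANTCA, found in 6.57% of windows. TGACGTCA (the CRE, 1.65% of windows), GCGTGGGCG (EGR, 0.720%) and 2 forms of the NF-kB site (0.179% and 0.142%) were not in these 9 windows. All motifs were searched on both strands, and no 2 of the matches in these windows overlapped. A match is a description of letters, not a binding site.

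The other 2 pro-survival genes were not called. BCL2L1, which encodes BCL-XL, was at 130 and 130 CPM in the PMA libraries, against 81.6 and 72.0 CPM in the untreated libraries. Both PMA libraries were higher, with a log2 fold change of 0.76 ± 0.30 (95% interval −0.005 to 1.52, edgeR adjusted p = 0.187) and a ratio of 1.59 in lot 1 and 1.81 in lot 2. An annotated antisense gene, ABALON, overlaps 1424 bases of BCL2L1 exons and had 6 to 117 counts per library, against 3106 to 6017 for BCL2L1. BCL2, the founding member of the family, was at 12.9 and 12.7 CPM in the PMA libraries, against 46.0 and 19.96 CPM in the untreated libraries. It was lower in both PMA libraries, but the untreated lots differed 2.31-fold. Its log2 fold change was −1.37 ± 0.53 (95% interval −2.73 to −0.003, edgeR adjusted p = 0.184), so the unadjusted p of 0.0496 did not survive adjustment over all genes. Relative to untreated cells the BCL2 ratio was 0.281 in lot 1 and 0.634 in lot 2.

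**Figure D2:**
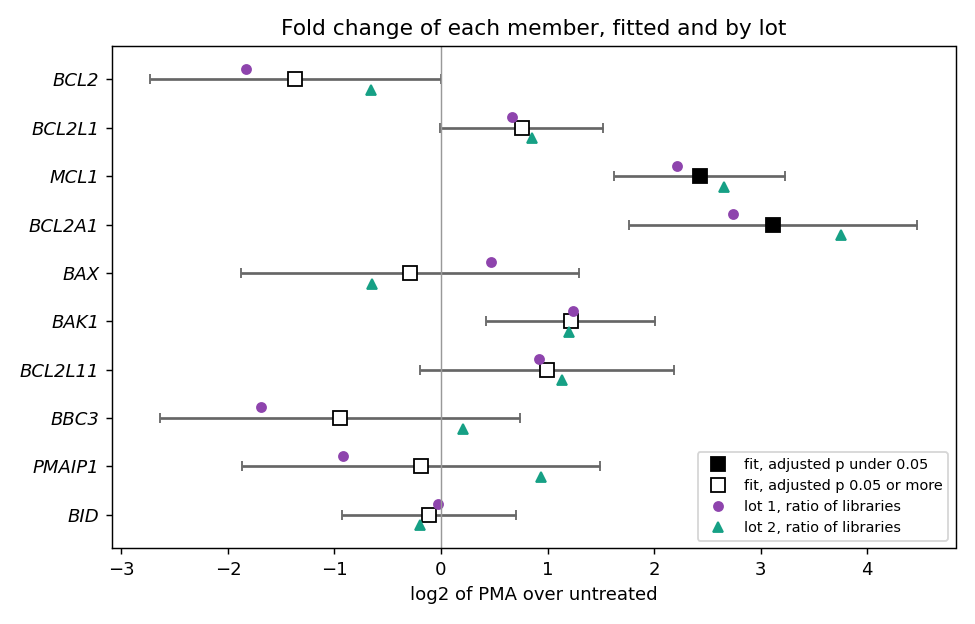
Log2 of PMA over untreated for each member; squares are fitted values with their 95% intervals (n = 2 libraries per group), filled where the adjusted p is under 0.05, and purple circles and green triangles are the ratios of single libraries in lots 1 and 2. MCL1 and BCL2A1 are filled at 2.43 and 3.12, and BAX, BBC3 and PMAIP1 have their lots on opposite sides of 0, although BBC3 in lot 2 moved to −0.027 with upper-quartile factors.

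The effectors BAX and BAK1 stand at the end of the pathway, and neither was called. BAK1, which encodes BAK, resident on mitochondria, was at 131 and 147 CPM in the PMA libraries, against 55.4 and 64.1 CPM in the untreated libraries. The groups did not overlap and the ratio was alike in both lots, 2.36 in lot 1 and 2.30 in lot 2. Its log2 fold change of 1.22 ± 0.31 missed the threshold (95% interval 0.43 to 2.01, edgeR adjusted p = 0.0806), whereas DESeq2 gave an adjusted p of 0.00473. The named pseudogene BAK1P1 had 18 to 259 counts, against 2767 to 6818 for BAK1, and reads of such copies can be shared. BAX, whose protein moves from the cytosol to mitochondria on activation, was at 73.3 and 109 CPM in the PMA libraries, against 52.8 and 170 CPM in the untreated libraries. The untreated values lie on either side of the PMA values, and the ratio was 1.39 in lot 1 and 0.640 in lot 2. Its log2 fold change of −0.29 ± 0.62 had a 95% interval of −1.88 to 1.30 (edgeR adjusted p = 0.815), which covers changes in either direction, and the sign turned without untreated replicate 2 (0.79, adjusted p = 0.278).

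None of the 4 BH3-only members was called by edgeR, and none had an unadjusted p under 0.05. BCL2L11 encodes BIM, which binds all pro-survival members. It was at 109 and 69.1 CPM in the PMA libraries, against 57.8 and 31.5 CPM in the untreated libraries. The groups did not overlap and the ratio was 1.89 in lot 1 and 2.20 in lot 2, but within each group lot 1 was the higher (log2 fold change 1.00 ± 0.47, 95% interval −0.20 to 2.19, edgeR adjusted p = 0.254). Exons of the noncoding gene MIR4435-2HG, on the opposite strand, overlap 727 bases of BCL2L11 exons, and that gene had 1989 to 3054 counts against 1357 to 3652 for BCL2L11, so without a stated use of strand the BCL2L11 values are uncertain.

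BBC3 and PMAIP1 encode PUMA and NOXA, BH3-only proteins known to be induced by cell stress; NOXA binds chiefly MCL1 and BFL-1. BBC3 was at 7.79 and 9.52 CPM in the PMA libraries, against 25.1 and 8.25 CPM in the untreated libraries. PMAIP1 was at 9.24 and 11.3 CPM in the PMA libraries, against 17.5 and 5.89 CPM in the untreated libraries. For both genes untreated lot 1 stood above every other library, and the lots moved in opposite directions. The BBC3 ratio of PMA to untreated was 0.310 in lot 1 and 1.15 in lot 2, and the PMAIP1 ratio was 0.528 in lot 1 and 1.91 in lot 2; with upper-quartile factors the log2 ratio of BBC3 in lot 2 was −0.027, against 0.21. The edgeR log2 fold changes were −0.95 ± 0.66 for BBC3 (adjusted p = 0.436) and −0.19 ± 0.66 for PMAIP1 (adjusted p = 0.890). Without untreated replicate 1 these were 0.007 and 0.74 (adjusted p = 0.994 and 0.366).

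BID, which caspase-8 cuts to link death receptors to mitochondria, varied least. It was at 57.2 and 56.8 CPM in the PMA libraries, against 58.2 and 65.2 CPM in the untreated libraries. All 4 values lie close together, with a log2 fold change of −0.11 ± 0.32 (95% interval −0.93 to 0.70, edgeR adjusted p = 0.862).

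For these members the 2 lots lay further apart without PMA than with it. Between the 2 untreated libraries, 5 of the 10 members differed by 2-fold or more, and between the 2 PMA libraries 0 did. Over the 9200 genes at 10 CPM or more on average, 7.25% differed by 2-fold or more between the PMA libraries and 30.0% between the untreated libraries. The 5 members were BCL2, BCL2A1, BBC3 and PMAIP1, which were higher in untreated lot 1 by 2.31-, 2.42-, 3.05- and 2.97-fold, and BAX, which was higher in untreated lot 2 by 3.22-fold. In the PMA libraries the same 5 genes differed by 1.02- to 1.49-fold. PMA and untreated cells differed in the same direction in both lots for 7 of 10 members, against 73.6% of all genes tested; 1 of the 7 was BID, whose log2 ratio in lot 1 was −0.025 and turned to 0.037 with RLE factors. The lots also differed in other ways. Mitochondrially encoded genes took 2.81% of counts in lot 1 and 5.99% in lot 2 with PMA, against 3.66% and 8.58% without. Genes above 0 numbered 20820 and 19939 with PMA, against 23213 and 19080 without. The part of these differences in the results was not tested.

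**Figure D3:**
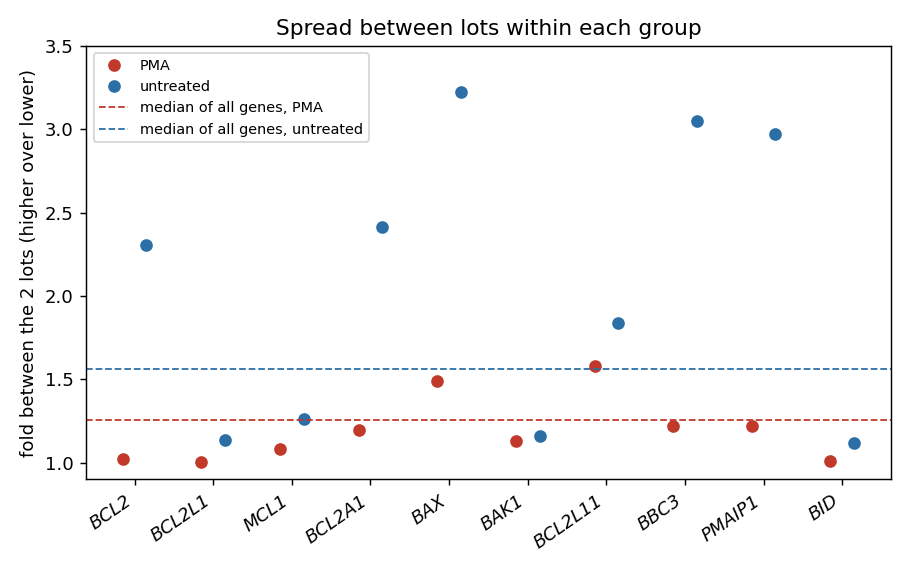
Fold between the 2 lots of each group, higher over lower library, for each member (red PMA, blue untreated); dashed lines are the medians over 9200 genes at 10 CPM or more, 1.25 with PMA and 1.56 untreated. The 5 blue points above 2 are BCL2, BCL2A1, BAX, BBC3 and PMAIP1, and no red point reaches 2.

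Levels of different genes were set against each other as CPM per kilobase of the longest coding transcript in GENCODE release 29. Per kilobase, BCL2A1 was the most abundant member in both PMA libraries, at 496 and 415 CPM per kb, against 74.3 and 30.8 CPM per kb in the untreated libraries. MCL1 was at 120 and 129 CPM per kb in the PMA libraries, against 25.8 and 20.5 CPM per kb in the untreated libraries. BCL2 was at 1.74 and 1.70 CPM per kb in the PMA libraries, against 6.17 and 2.67 CPM per kb in the untreated libraries. BCL2A1 ranked highest in both PMA libraries with the median transcript length as well, but other ranks moved with the length: MCL1 ranked 2 in both PMA libraries with the longest transcript and 4 with the median, below BCL2L1 and BAX. BCL2 ranked 10 in all 4 libraries with the longest transcript, and 9 in untreated lot 2 with the median, above PMAIP1. The 10 members summed to 833 and 790 CPM per kb in the PMA libraries, against 258.5 and 275.5 CPM per kb in the untreated libraries. MCL1 and BCL2A1 together made up 73.9% and 68.9% of that sum with PMA, against 38.7% and 18.6% without. The 4 pro-survival genes made up 80.1% and 75.5% with PMA, against 53.2% and 29.6% without, and the effectors 13.6% and 18.6% with PMA, against 24.7% and 56.0% without. BH3-only members made up 6.33% and 5.94% with PMA, against 22.1% and 14.4% without. In untreated lot 2 BAX alone was 45.5% of the sum, so the untreated make-up differed much between lots. These shares follow in part from the rise of MCL1 and BCL2A1 already given and are no separate result. The smaller BH3-only share with PMA is set against a larger sum, and no BH3-only member was called lower. Family genes outside the 10 members are left out of the shares. Among them, the BH3-only gene BMF was at 358 and 411 CPM with PMA, against 41.1 and 22.8 CPM without. The pro-survival BCL2L2 was at 28.1 and 44.0 CPM with PMA, against 13.8 and 12.7 CPM without. With the median length of coding transcripts in place of the longest, the share of the pro-survival genes was 73.0% and 67.7% with PMA, against 49.2% and 25.5% without. That of MCL1 and BCL2A1 together was then 60.3% and 54.7% with PMA, against 26.1% and 10.4% without.

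**Figure D4:**
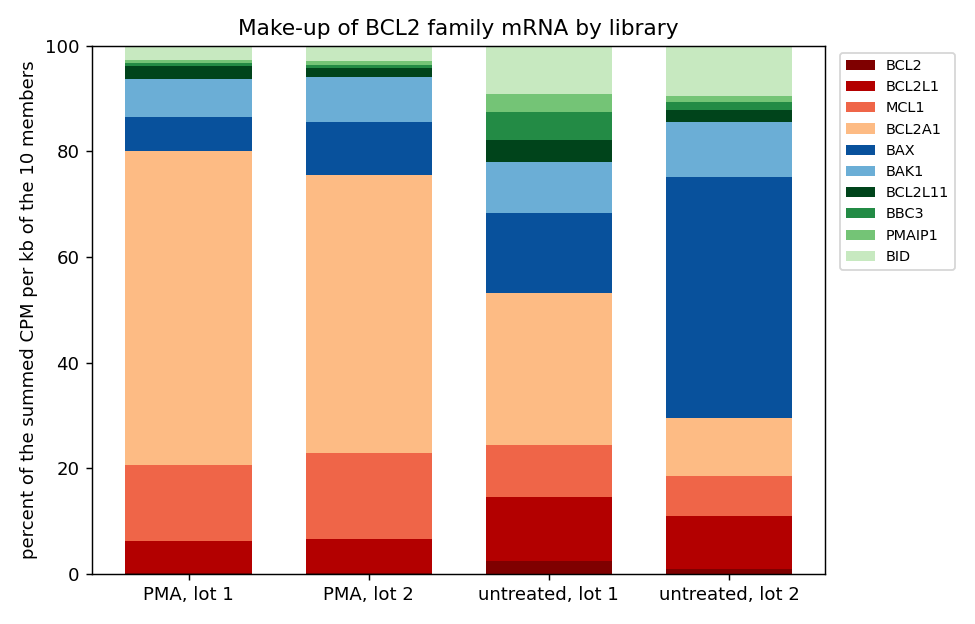
Share of each member in the summed CPM per kilobase of the 10 members, 1 bar per library, with pro-survival genes in red shades, effectors in blue and BH3-only genes in green. BCL2A1 takes 59.6% and 52.6% of the PMA bars and 28.7% and 11.2% of the untreated bars.

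The other 71 genes of the pathway were read in 6 lists, and 63 passed the filter. Of these 63, 3 rose (BMF, CFLAR and ATF3) and 2 fell (BIRC5 and MYC), which is 7.94%, against 6.30% of all genes tested. Each of these 5 genes had PMA libraries that did not overlap the untreated ones, as did 60.4% of all genes tested. The 5 were picked by a test on the same libraries, so this adds nothing to their calls. In the list of other BCL2 family genes, 8 of 13 were tested, 1 rose and 0 fell, with a median log2 fold change of 0.82 against 0.00 over all genes. The gene that rose was BMF, a BH3-only gene known from cells that lose attachment. BMF was at 358 and 411 CPM in the PMA libraries, against 41.1 and 22.8 CPM in the untreated libraries. Both PMA libraries were far above the untreated ones, a 12.0-fold rise (log2 fold change 3.59 ± 0.43, edgeR adjusted p = 0.0253). The pro-survival BCL2L2 was at 28.1 and 44.0 CPM in the PMA libraries, against 13.8 and 12.7 CPM untreated (edgeR adjusted p = 0.104, DESeq2 adjusted p = 0.0106). The mitophagy receptor BNIP3L (adjusted p = 0.181) and BCL2L12 (adjusted p = 0.237) were not called by edgeR, with log2 fold changes of 1.43 ± 0.55 and −1.13 ± 0.50, and DESeq2 called BNIP3L (adjusted p = 0.0478). BCL2L10, BCL2L14, BCL2L15 and BOK were listed at 0 in every library, and HRK reached at most 0.173 CPM.

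Downstream of the mitochondrion, 0 of 13 genes passed edgeR's adjusted threshold, 2 had an unadjusted p under 0.05 and the median log2 fold change was −0.33. AIFM1, the apoptosis-inducing factor of the respiratory chain, was at 74.9 and 60.0 CPM in the PMA libraries, against 160 and 135 CPM untreated. Both PMA libraries were lower, by a log2 fold change of −1.13 ± 0.32 that missed the threshold (edgeR adjusted p = 0.0990, DESeq2 adjusted p = 0.0141). The mitochondrial protease HTRA2 (adjusted p = 0.164) and the executioner CASP6 (adjusted p = 0.217) had edgeR log2 fold changes of −1.17 ± 0.43 and −0.99 ± 0.42. Among 7 inhibitors of apoptosis, 0 rose and 1 fell in edgeR's test. The gene that fell was BIRC5, encoding survivin, which also works in mitosis. It was at 2.27 and 1.77 CPM in the PMA libraries, against 55.2 and 111 CPM untreated (log2 fold change −5.36 ± 0.57, edgeR adjusted p = 0.0224). XIAP, a direct inhibitor of caspases, was at 111 and 93.1 CPM in the PMA libraries, against 40.5 and 31.8 CPM untreated. It missed the threshold with edgeR (log2 fold change 1.501 ± 0.343, adjusted p = 0.0671), whereas DESeq2 gave an adjusted p of 0.000736. With edgeR on genes past 5 CPM in 2 libraries, the adjusted p of XIAP was 0.0462. BIRC2 was not called by edgeR (1.87 ± 0.55, adjusted p = 0.104; DESeq2 adjusted p = 0.00641), and BIRC3 was at 2.79 and 3.98 CPM with PMA, against 0.364 and 0 CPM untreated (edgeR adjusted p = 0.224). The median log2 fold change of this list was 1.501, against 0.00 over all genes tested.

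Among 9 tested genes of the death receptor pathway, 1 rose, 0 fell and the median log2 fold change was 1.24. The gene that rose was CFLAR, which encodes c-FLIP, the inhibitor of caspase-8 at death receptors. CFLAR was at 144 and 126 CPM in the PMA libraries, against 23.7 and 23.2 CPM in the untreated libraries. The 2 libraries of each group were close, and the rise was 5.76-fold (log2 fold change 2.53 ± 0.33, edgeR adjusted p = 0.0272). Without PMA replicate 1 or 2 in turn its adjusted p was 0.124 and 0.103, with log2 fold changes of 2.36 and 2.63. TNFRSF10B, a receptor of TRAIL, was at 170 and 182 CPM in the PMA libraries, against 67.7 and 38.9 CPM untreated (1.72 ± 0.39, edgeR adjusted p = 0.0667, DESeq2 adjusted p = 0.000537). Its adjusted p was 0.0417 with limma-voom, and 0.0408 with edgeR on genes past 5 CPM in 2 libraries. FAS, the receptor of the FAS ligand, was at 1.20 and 0.757 CPM in the PMA libraries, against 9.04 and 4.94 CPM untreated (−2.84 ± 0.72, edgeR adjusted p = 0.0810, DESeq2 adjusted p = 0.00332). With the same 5 CPM filter the edgeR adjusted p of FAS was 0.0411. The adaptor TRADD had a log2 fold change of 1.97 ± 0.61 (edgeR adjusted p = 0.116, DESeq2 adjusted p = 0.0173).

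**Figure D5:**
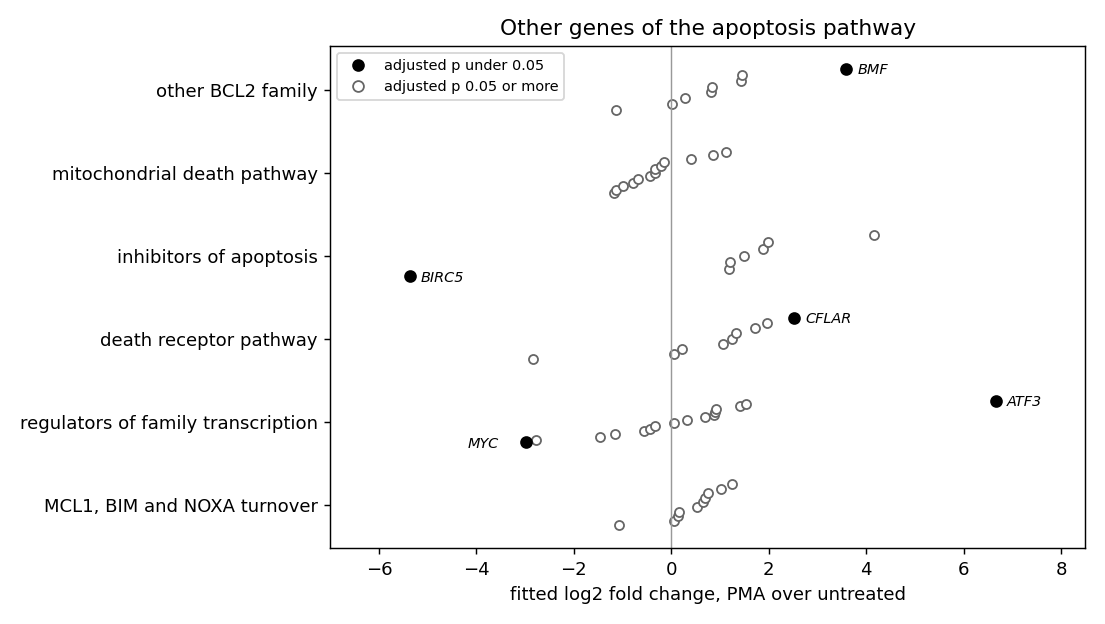
Fitted log2 fold change of PMA over untreated for the 63 tested genes of the 6 lists, 1 point per gene, filled and named where the adjusted p is under 0.05. BMF, CFLAR and ATF3 lie right of 0 and BIRC5 and MYC left of it. The open point at 4.17 is BIRC3, at 23 and 0 counts in untreated lots 1 and 2. Its fitted value is imprecise (SE 1.81, 95% interval −0.46 to 8.80).

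Of 16 tested regulators of the family's transcription, ATF3 rose and MYC fell, and the median log2 fold change was 0.18. ATF3, a stress-induced factor, was at 197 and 237 CPM in the PMA libraries, against 3.47 and 0.811 CPM untreated (6.66 ± 0.87, edgeR adjusted p = 0.0274). MYC, a driver of growth that also sensitises cells to apoptosis, was at 47.2 and 40.3 CPM in the PMA libraries, against 330 and 364 CPM untreated. MYC fell by 2.99 on the log2 scale (SE 0.32, edgeR adjusted p = 0.0224, and 0.0524 and 0.0896 without PMA replicates 1 and 2, with log2 fold changes of −3.17 and −2.86). E2F1, a cell cycle factor, was at 4.42 and 12.6 CPM in the PMA libraries, against 56.2 and 60.6 CPM untreated. It was not called by edgeR in the main fit (log2 fold change −2.77 ± 0.62, adjusted p = 0.0636). Its adjusted p was 8.41e-05 with DESeq2, 0.0319 with limma-voom and 0.0352 with edgeR on genes past 5 CPM in 2 libraries. FOXO4, of the FOXO family that drives BIM transcription, was at 71.3 and 55.0 CPM in the PMA libraries, against 28.4 and 15.2 CPM untreated (edgeR adjusted p = 0.109, DESeq2 adjusted p = 0.0106). TP73 was listed at 0 in every library. Of 10 tested genes for turnover of MCL1, BIM and NOXA protein, 0 were called by edgeR, 1 had an unadjusted p under 0.05 and the median was 0.60. That gene was the kinase MAPK3 (1.03 ± 0.32, edgeR adjusted p = 0.119, DESeq2 adjusted p = 0.0209). The deubiquitinase USP9X, which stabilises MCL1, was at 284 and 176 CPM with PMA, against 137 and 56.7 CPM untreated (edgeR adjusted p = 0.221), and the ligase adaptor BTRC had a log2 fold change of 0.75 ± 0.36 (edgeR adjusted p = 0.266).

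In the authors' deposited table, 2 of the 10 members passed their threshold, against 8.16% of the genes tested here. In the authors' deposited table MCL1 had a log2 ratio of 2.42 (q = 0.00440) and BCL2A1 of 3.10 (q = 0.000571). In the authors' deposited table BAK1 had a log2 ratio of 1.21 (q = 0.783), and the other 7 members had q = 1. As a description over 4 libraries, the profile most like that of MCL1, the member with the smallest p, was that of CASK among 9199 genes, at a Euclidean distance of 0.0545 in centred log2 CPM, followed by CORO2B (0.165) and ZFYVE28 (0.167).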

How the data were processed

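RNA from U937 cells with and without PMA was sequenced after poly(A) enrichment on an Ion Proton instrument, per the labels' protocols and design text. StringTie 2.1.1 and HISAT2 2.1.0 are listed, without roles, per the submitters' processing notes. Genome build, annotation, counting program and strand setting were not given in the sources used here. Only positions of RefSeq promoter windows are therefore printed. The authors deposited estimated counts per gene, not scaled between libraries, which are whole numbers as deposited. Their second deposited table gives a log2 ratio and a p-value and q-value per gene, and 4 columns of scaled values in it were not used.

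Genes were tested with edgeR 4.0.16 in R 4.3.3 (TMM factors, filterByExpr, quasi-likelihood test, no block) over all 4 libraries, with Benjamini-Hochberg adjusted p-values called under 0.05. Standard errors were derived from the log2 fold change and the F value. A single count is worth 0.0158 to 0.0307 CPM, which sets the counting precision only. Transcript lengths came from GENCODE release 29, whose identifiers matched all 10 members apart from the version. Libraries were paired by the lot given in their titles, and deviations of same-lot libraries from their group means correlated at 0.154 across genes. The members and lists were chosen with earlier results of these data known. The text names all 10 members and, from each other list, the genes past the threshold and up to 3 others with the smallest p, apart from items not reported here. Alternatives were RLE and upper-quartile factors, other filters, DESeq2 1.42.0, limma-voom (limma 3.58.1), a block for lot, a minimum fold of 1.5 in the test, a threshold of 0.01, dropping each library in turn, and library sizes that leave out mitochondrial and the top 20 genes. The median transcript length and library sizes without scaling factors were alternatives chosen after seeing the data.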

Additional observations from a re-analysis of the deposited data

How the results depend on the processing

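The calls of MCL1 and BCL2A1 were kept in 11 of 14 alternatives each and lost without either PMA library and at an adjusted p under 0.01, where 0 members, 0 higher and 0 lower genes of all tested, and 0 other pathway genes passed with edgeR; 4445 genes and 4 members had an unadjusted p under 0.05. Their log2 fold changes stayed between 2.27 and 2.54 (MCL1) and between 2.62 and 3.83 (BCL2A1), with adjusted p from 2.76e-11 to 0.0940 and from 6.35e-08 to 0.0629. Over the alternatives that leave out 1 library, which assume that a lone library varies like the other group, 0 to 2 members were higher, 424 to 1830 genes were higher and 79 to 1085 lower, and 2 to 14 other pathway genes were higher and 1 to 4 lower. DESeq2 called 2136 genes higher and 1698 lower (13 and 5 of the pathway), limma-voom 1149 and 636, the filter of 5 CPM gave 721 lower genes (5 higher and 4 lower of the pathway), and the test against a fold of 1.5 gave 217 lower genes. Against these stand 705 higher and 332 lower genes, and 3 and 2 of the pathway. With the lot as a block in edgeR, 2 members were higher (adjusted p = 0.0393 for MCL1 and 0.0380 for BCL2A1). Of all genes tested, 591 were then higher and 244 lower. The block changed no call of a member or of a named pathway gene, and the cell type markers were not recomputed. PMAIP1 had a log2 fold change of 0.006 with the block. Leaving out 1 library, log2 fold changes ran from −0.963 to 0.786 for BAX, from −1.539 to 0.007 for BBC3 and from −0.77 to 0.738 for PMAIP1, with the sign turned without untreated replicate 2 (BAX) or 1 (BBC3 and PMAIP1); the cause was not tested. Upper-quartile factors moved the median of all genes to −0.17 on the log2 scale and turned the BBC3 log2 ratio in lot 2 to −0.027, against 0.21, and RLE factors turned the BID log2 ratio in lot 1 to 0.037, against −0.025. With the median transcript length the mean share of the pro-survival genes with PMA was 70.4%, against 77.8%, and that of MCL1 and BCL2A1 was 57.5%, against 71.4%; in untreated cells these shares were 37.3%, against 41.4%, and 18.2%, against 28.7%. The lowest count of a member in a library was 254.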
